A study of Mus musculus with 12 samples.

Results

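Interferon-stimulated genes were described here in dendritic cells (DCs) of the mouse gut. The members were 37 listed genes, matched by symbol to the Ensembl gene IDs of the count files through GENCODE M21 (GRCm38). All 37 were found among the 53801 gene IDs, and all 37 were among the 20580 genes tested, which reached a count of 5 in 1 or more of the 12 samples. The DCs were sorted as CD103+CD11b- cells or as CD103-CD11b+ cells, from wild-type mice (WT) and from mice labelled Cbfb-cKO (cKO), with 3 samples from 3 different mice in each of the 4 groups. Per the study's methods, the cKO mice were Cbfb F/F mice carrying a CD11c-Cre transgene, so that Cre was driven by the promoter of the gene for CD11c, an integrin chain of DCs that other leukocytes can also express. *Cbfb* encodes the partner that Runx transcription factors need for stable DNA binding. No Cre transgene is named in the labels of the WT samples, the labels give no age, the study's text gives an age for its analyses of gut DCs without naming the RNA-seq, and the strain of both genotypes is labelled as a mixed background, so that effects of the transgene or of linked background alleles cannot be told apart from those of *Cbfb*. The comparisons asked how the levels of these genes differed between genotypes within each subset, whether that difference was unequal between the subsets, and how the subsets differed within each genotype.

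Type I interferons signal through the IFNAR receptor, and type III interferons through the IFNLR1 and IL10RB chains, to the kinases JAK1 and TYK2. These phosphorylate STAT proteins, and a complex that holds STAT2 and IRF9 then binds a DNA element, the interferon-stimulated response element (ISRE), in front of target genes. The target genes encode sensors of viral RNA and DNA, enzymes that degrade RNA or deplete nucleotides, and proteins that feed back on the pathway, and many are also expressed at a basal level without infection.

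The ISRE can be read in the DNA in front of some members that the genotype comparisons turn on. Of the 8 members called for genotype within a subset or over both, *Isg15*, *Oas3* and *Gbp2* hold it in their window. Each line gives the 120 bases in front of the RefSeq transcript start (GRCm38.p6), in the direction of transcription, with capitals marking matches to the ISRE searched as GAAA, any 2 bases, GAAA on both strands. Overlapping matches run together. The windows of *Isg15* (chr4:156200819-156200938, minus strand), *Oas3* (chr5:120777660-120777779, minus strand), *Oas1a* (chr5:120907526-120907645, minus strand) and *Ddx60* (chr8:61927967-61928086, plus strand) hold a match, and that of *Oasl1* (chr5:114923120-114923239, plus strand) is shown because it holds none.
Isg15: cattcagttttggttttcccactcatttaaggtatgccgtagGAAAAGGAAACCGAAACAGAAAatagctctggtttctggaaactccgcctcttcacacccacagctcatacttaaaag
Oas3: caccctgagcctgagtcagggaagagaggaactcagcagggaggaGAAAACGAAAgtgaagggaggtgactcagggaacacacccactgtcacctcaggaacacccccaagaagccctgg
Oas1a: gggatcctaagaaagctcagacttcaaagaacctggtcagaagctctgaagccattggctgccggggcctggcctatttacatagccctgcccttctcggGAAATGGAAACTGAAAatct
Ddx60: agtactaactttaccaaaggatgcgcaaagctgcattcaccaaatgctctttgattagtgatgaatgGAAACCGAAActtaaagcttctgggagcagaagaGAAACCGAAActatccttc
Oasl1: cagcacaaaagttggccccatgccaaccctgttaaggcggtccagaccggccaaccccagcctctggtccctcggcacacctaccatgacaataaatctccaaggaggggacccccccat

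A promoter window from 250 bases before to 50 bases after the start was given for 28 of the 37 members. The ISRE letters were found in 15 of the 28 (53.6%) and in 3.99% of the 27025 genes with a window. The letters of the gamma-activated site, a DNA element of the response to interferon gamma (TTC, any 3 bases, GAA), were found in 6 of the 28 members (21.4%) and in 9.55% of all genes. Windows of *Isg15* held 3 ISRE matches, windows of *Oas1a* and *Ddx60* held 2 each, and windows of *Gbp2* and *Ddx58* held 1 each. *Samhd1* and *Oasl1* had none in theirs, and *Oas2*, *Mx1* and *Zbp1* were among the 9 members without a window. A match is a run of letters and does not show binding.

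The samples differed in ways other than the groups. The reads counted on genes numbered 2161929 in the shallowest and 5863484 in the deepest sample, and 3 counts, taken as the floor, corresponded to between 0.512 and 1.39 CPM of these totals. CPM values are otherwise counts scaled to a common library size with TMM factors, which correct for the makeup of each library. *Cbfb* was at 199 to 228 CPM in WT and 215 to 290 CPM in cKO CD103+CD11b- DCs, and at 161 to 217 CPM in WT and 170 to 273 CPM in cKO CD103-CD11b+ DCs, so that counts over the whole gene, which include exons outside a deletion, did not check the genotype labels. The markers of the CD103+CD11b- subset (*Itgae*, *Xcr1*, *Clec9a*, *Batf3*, *Cadm1* and *Irf8*) summed to 2450 to 4048 CPM in the CD103+CD11b- samples and to 343 to 671 CPM in the others, higher in the subset that they mark. Markers of the CD103-CD11b+ subset (*Itgam*, *Sirpa*, *Irf4* and *Cd209a*) summed to 869 to 1526 CPM in CD103-CD11b+ DCs, to 345 to 565 CPM in WT CD103+CD11b- DCs and to 80.6 to 111 CPM in cKO CD103+CD11b- DCs. Among them *Itgam*, the CD11b chain itself, was at 3.66 to 4.79 CPM in WT and 5.99 to 10.98 CPM in cKO CD103+CD11b- DCs. The 5 B cell markers summed to 382 CPM in cKO CD103-CD11b+ replicate 1 and to 13.3 to 150 CPM in the other 11 samples. Replicate 3 differed most from the others of its group in both CD103+CD11b- groups and in cKO CD103-CD11b+ DCs. By a chi-square test of counts over genes, per degree of freedom, it differed from the others by 11.4 and 11.5 in WT, where replicates 1 and 2 differed by 2.46, and by 8.49 and 9.74 in cKO mice, where they differed by 3.65. In cKO CD103-CD11b+ DCs it differed by 15.5 and 17.8, where replicates 1 and 2 differed by 8.19, and the WT CD103-CD11b+ samples all differed from each other, by 16.2 to 23.2. Plasmacytoid DC markers in CD103+CD11b- DCs summed to 803 CPM in replicate 3 and 1568 to 1856 CPM in the other WT samples, and to 321 CPM and 591 to 679 CPM in cKO samples. In such bulk samples, fewer cells of a type and less RNA per cell cannot be told apart.

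**Figure D1:**
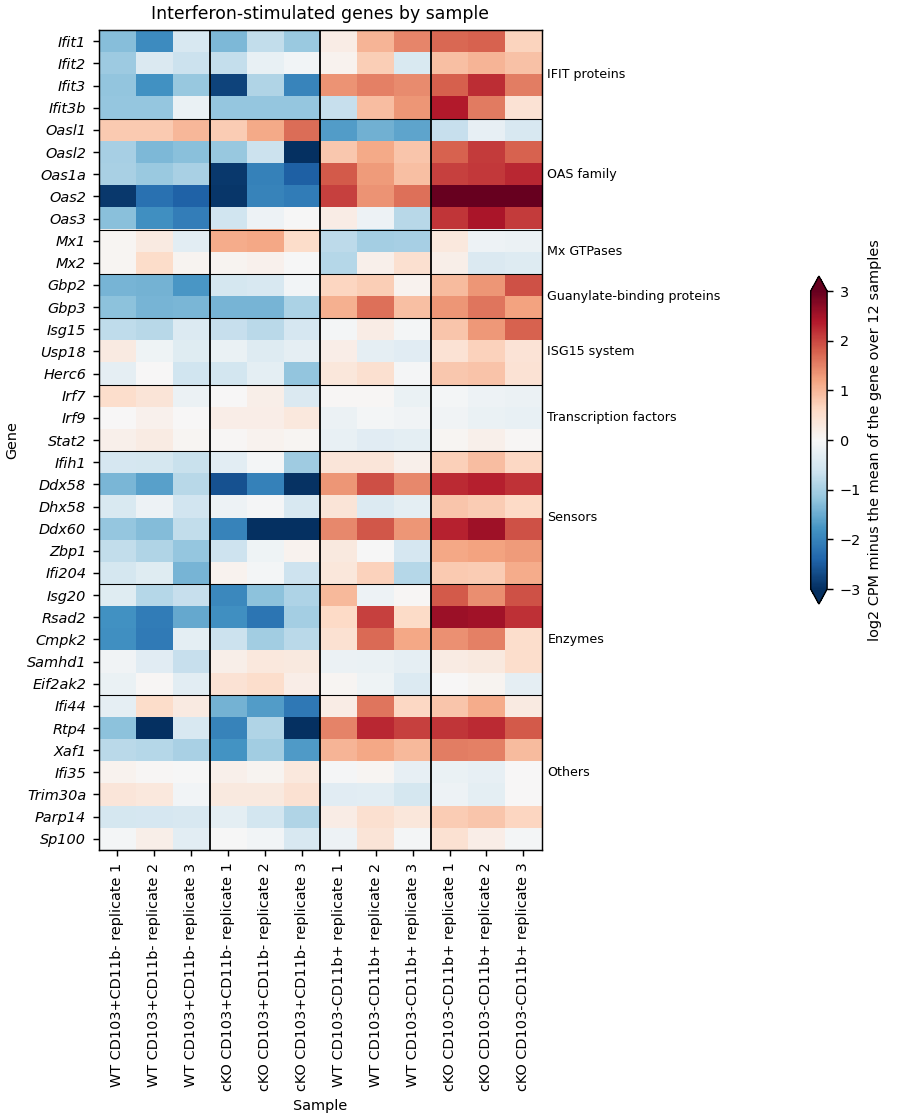
Log2 CPM of each of the 37 genes (rows, grouped by role) in each of the 12 samples (columns), drawn as the difference from the gene's mean over the 12 samples. Colours end at 3 log2 units. The CD103-CD11b+ samples are higher than the CD103+CD11b- samples for most rows. Within WT mice *Oasl1*, *Mx1*, *Stat2* and *Trim30a* are lower in the CD103-CD11b+ than in the CD103+CD11b- samples. *Oas3* is higher in cKO than in WT samples in both subsets.

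Per length of exon, *Trim30a*, which encodes a TRIM family protein, had the highest mean level over the 12 samples, at 61.1 CPM per kb. *Gbp2*, a guanylate-binding GTPase, had 51.6 CPM per kb over the 12 samples, but a mean of 13.5 in WT and 30.4 in cKO CD103+CD11b- DCs against 56.1 in WT and 106 CPM per kb in cKO CD103-CD11b+ DCs, so that its place rests on the latter subset. *Samhd1*, which encodes an enzyme that degrades the nucleotides used for DNA synthesis, had 50.9 CPM per kb, *Stat2* had 37.9 CPM per kb and *Ifi35* had 32.4 CPM per kb. The lowest were *Ifit3b* at 0.581, *Ifi204* at 1.65, *Ifi44* at 2.20, *Ddx60* at 2.83 and *Cmpk2* at 2.96 CPM per kb. These ranks are of means over all samples and differ within a group, so that *Oas2* at 0.239, *Rsad2* at 0.480 and *Oas3* at 0.626 CPM per kb lay below *Ifi204* at 0.836 in WT CD103+CD11b- DCs, and *Oas3* at 1.88 and *Oasl1* at 2.93 lay below *Ifi44* at 3.34 in WT CD103-CD11b+ DCs. Reads of *Ifit3b*, *Ifi204*, *Oas1a*, *Gbp2* and *Gbp3* may be split with close paralogs, so that their levels are uncertain. The 37 genes together took 0.182% to 0.209% of the counts in WT CD103+CD11b- samples, 0.212% to 0.237% in cKO CD103+CD11b- samples, 0.223% to 0.267% in WT CD103-CD11b+ samples and 0.332% to 0.375% in cKO CD103-CD11b+ samples. The share in the last group did not overlap any other.

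The mean of the 37 genes on the log2 CPM scale gives each gene the same weight. This score was 4.19, 4.12 and 4.20 in the WT CD103+CD11b- samples and 4.06, 4.27 and 3.98 in the cKO CD103+CD11b- samples, so that the genotypes overlapped in this subset. It was 5.19, 5.42 and 5.11 in the WT CD103-CD11b+ samples and 5.91, 5.96 and 5.75 in the cKO CD103-CD11b+ samples. Every cKO sample of this subset lay above every WT sample. The difference of the group means, cKO minus WT, was 0.63 within CD103-CD11b+ and -0.06 within CD103+CD11b- DCs, beside an SD between replicates of 0.126 pooled over the groups. Over both subsets it was 0.28, and the genotype difference was larger by 0.69 in CD103-CD11b+ DCs. CD103-CD11b+ minus CD103+CD11b- was 1.07 in WT and 1.77 in cKO mice. As the members were chosen with results of these data known, these values are a description and were not tested.

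**Figure D2:**
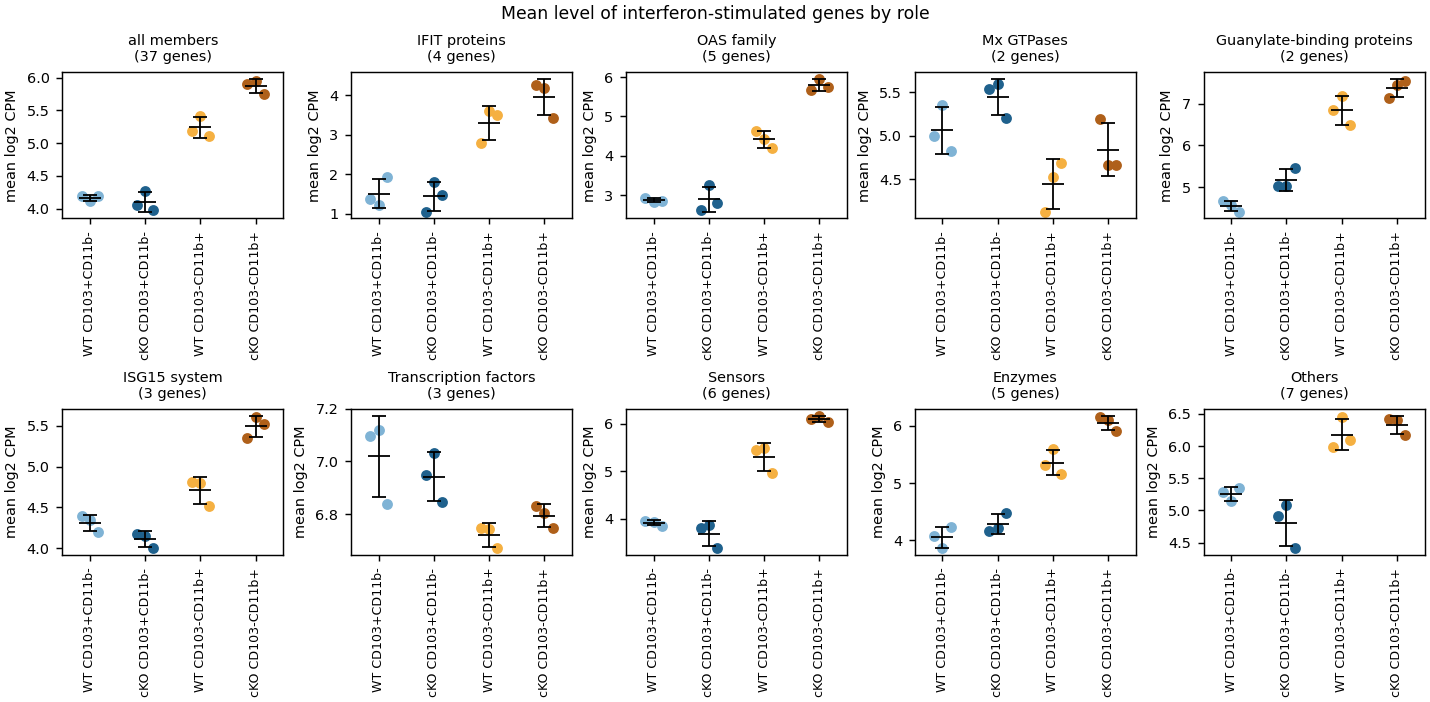
Mean log2 CPM of all 37 genes and of each role group by sample, with points for samples and bars for the mean and SD of each group (n = 3). The score of all members is highest in the cKO CD103-CD11b+ samples (5.75 to 5.96) and the transcription factors (*Irf7*, *Irf9* and *Stat2*) span the smallest range, with axes that do not start at 0 and differ between panels.

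In CD103-CD11b+ DCs, 5 of the 37 genes were higher in cKO than in WT mice and none was lower by edgeR's quasi-likelihood test, at an adjusted p under 0.05 and a fold change over 1.3. Of these, 3 were members of the 2′-5′ oligoadenylate synthetase (OAS) family, *Oas3*, *Oas2* and *Oasl1*, and the others were *Zbp1*, a sensor of nucleic acid in the Z form, and *Isg15*, a ubiquitin-like modifier. Of all genes tested, 1.11% were called higher and 0.5% lower. At an unadjusted p under 0.05, 20 members were higher and 0 were lower, against 8.29% and 9.15% of all genes. For 23 members each cKO sample lay above each WT sample, which held for 9.75% of all genes, and for 0 members each lay below, which held for 10.3%. On the log2 scale the members' median fold change was 0.57 and that of all genes was -0.06, and the members' values ran from -0.21 to 2.46.

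OAS proteins bind double-stranded RNA, and the active enzymes among them, such as OAS2 and OAS3, make 2′-5′ linked oligoadenylates that switch on RNase L. *Oas3* (chromosome 5, 120753098 to 120777661) was at 17.8, 13.7 and 8.44 CPM in the WT CD103-CD11b+ samples and at 68.9, 85.4 and 67.3 CPM in the cKO samples. The lowest cKO sample was far above the highest WT sample. It rose by 2.46 on the log2 scale (standard error 0.30, adjusted p = 0.00329 by edgeR's quasi-likelihood test), or 5.51-fold, the largest among the members. *Oas2* (chromosome 5, 120730333 to 120749853) rose from 36.2, 22.0 and 27.3 CPM to 72.5, 90.7 and 77.0 CPM, by 1.48 on the log2 scale (standard error 0.25, edgeR adjusted p = 0.0176). *Oasl1*, whose protein lacks the enzyme activity, rose from 7.05, 8.33 and 7.56 CPM to 14.6, 19.7 and 16.8 CPM, by 1.16 on the log2 scale (standard error 0.24, edgeR adjusted p = 0.0416). Neither gene overlapped between the genotypes. The other members of the family, *Oasl2* and *Oas1a*, did not pass the test, although all 5 had a positive log2 fold change, from 0.77 to 2.46.

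*Zbp1* was at 48.0, 39.0 and 27.3 CPM in WT and at 88.5, 90.2 and 95.9 CPM in cKO CD103-CD11b+ DCs, a rise of 1.26 on the log2 scale (standard error 0.23, edgeR adjusted p = 0.0233). The cKO samples lay close together while the WT samples were spread. *Isg15* was at 8.22, 9.99 and 8.14 CPM in WT and at 15.7, 21.9 and 30.1 CPM in cKO samples, a rise of 1.35 (standard error 0.28, edgeR adjusted p = 0.0400). Here it was the cKO samples that were spread, with replicate 3 the highest. *Mx1*, which encodes a dynamin-like GTPase against RNA viruses, had values of 30.3, 25.7 and 25.9 CPM in WT and 66.0, 47.6 and 46.4 CPM in cKO samples, with an adjusted p of 0.0542 by edgeR. *Stat2* had values of 191, 175 and 181 CPM in WT and 233, 247 and 227 CPM in cKO samples (log2 fold change 0.37, edgeR adjusted p = 0.0595). *Samhd1* had values of 399, 392.1 and 376 CPM in WT and 534, 553 and 652 CPM in cKO samples (log2 fold change 0.57, edgeR adjusted p = 0.0671). None of these 3 passed the test, and in none did the genotypes overlap.

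By role, 3 of 5 OAS family genes, 1 of 3 genes of the ISG15 system, 1 of 6 sensors and none of the 4 IFIT genes, 2 Mx genes, 2 guanylate-binding proteins, 3 transcription factors, 5 enzymes and 7 other genes were called higher in cKO CD103-CD11b+ DCs. The median log2 fold change was 1.16 for the OAS family, 0.74 for the sensors, 0.62 for the IFIT genes, whose products bind viral RNA ends, and -0.05 for the transcription factors. The count of 5 depended on single libraries. It was 1 without WT CD103-CD11b+ replicate 3 and without cKO CD103-CD11b+ replicate 2, 2 without WT CD103-CD11b+ replicate 2 and without cKO CD103-CD11b+ replicate 3, and 3 without cKO CD103-CD11b+ replicate 1, which had the most B cell marker counts, without WT CD103+CD11b- replicate 1 or 2, or without cKO CD103+CD11b- replicate 2. *Oas3* was called in each of these fits, with adjusted p from 0.00385 to 0.0217 when each of the 12 samples was left out, and *Oas2*, *Zbp1*, *Isg15* and *Oasl1* lost the call in 3, 5, 9 and 10 of the 12. In a fit to the 6 CD103-CD11b+ samples alone *Oas3* was not called (edgeR adjusted p = 0.0523), nor was any other member. Some markers of other cells moved with the genotype in this subset. The B cell marker *Ms4a1* was called higher, at 2.04 to 7.44 CPM in WT and 43.3 to 91.1 CPM in cKO samples (edgeR adjusted p = 0.00455), and *Itgae*, the CD103 chain, was called lower, at 138 to 281 CPM in WT and 30.6 to 81.5 CPM in cKO samples (edgeR adjusted p = 0.0301). The other markers of the CD103+CD11b- subset, *Xcr1*, *Clec9a*, *Batf3*, *Cadm1* and *Irf8*, were not called and had higher means in cKO samples. The median log2 fold change of the 6 was 0.29. The 5 B cell markers summed to 14.5 to 72.3 CPM in WT and 65.8 to 382 CPM in cKO samples, and the 5 epithelial markers to 86.0 to 119 CPM and 38.3 to 54.6 CPM. Their part in these differences was not tested. Of the 6 macrophage markers, which summed to 122 to 272 CPM in WT and 264 to 403 CPM in cKO samples, *Adgre1* was called higher (log2 fold change 1.93, edgeR adjusted p = 0.0336). The other 5 overlapped between the genotypes, with log2 fold changes from -0.69 to 0.08, so that the sum moved with *Adgre1*, and the median of the 6 was -0.05. Among these, *Fcgr1*, which encodes the CD64 used to gate macrophages out, was at 4.94 to 11.66 CPM in WT and 5.39 to 8.33 CPM in cKO samples.

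**Figure D3:**
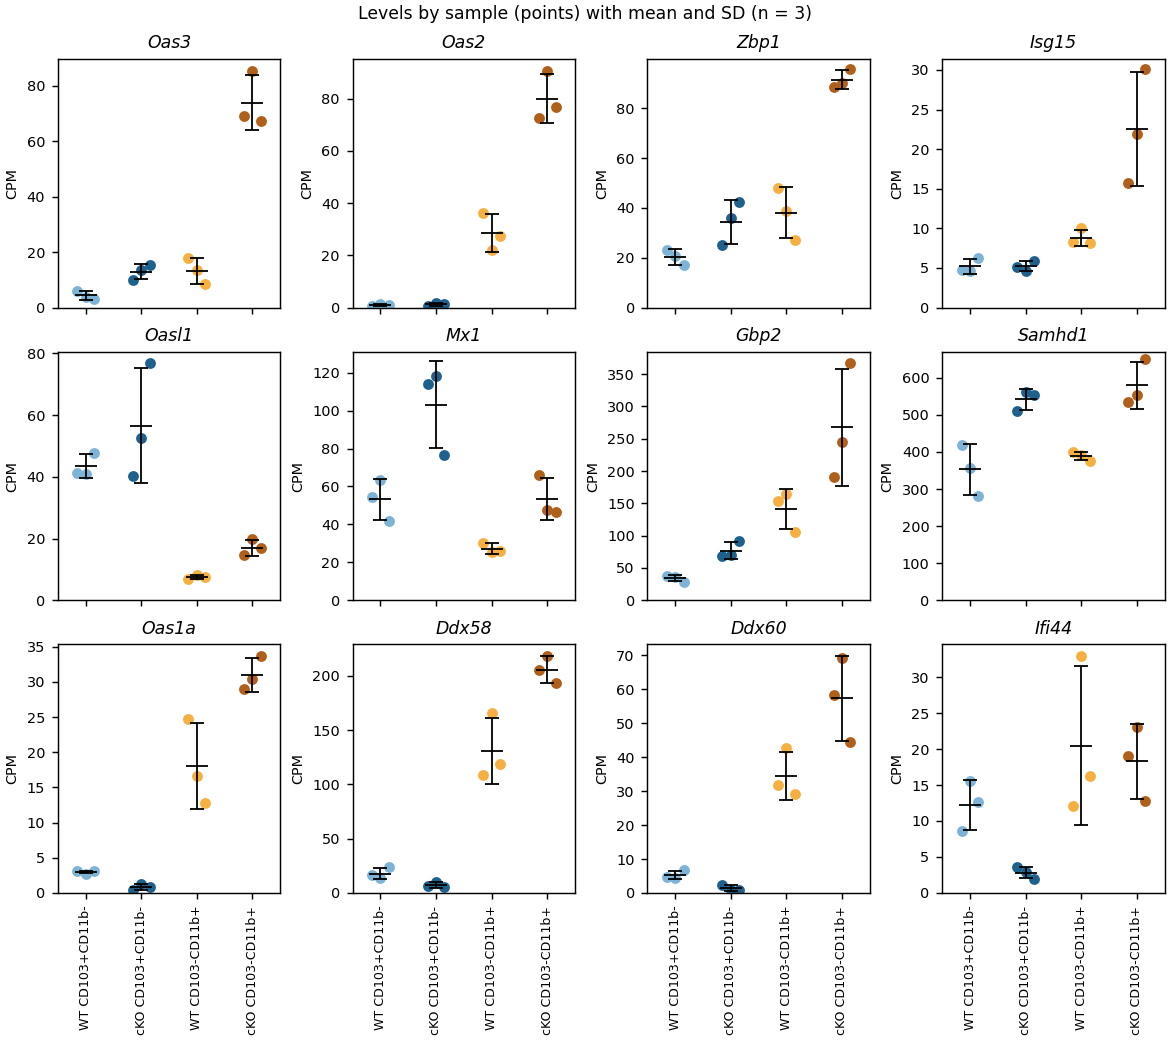
CPM by sample of the 8 members called for genotype within a subset or over both, of *Oas1a*, *Ddx58* and *Ddx60*, which were called for the difference between subsets, and of *Ifi44*. Points are samples and bars the mean and SD of each group (n = 3), with each axis starting at 0, and *Oas3* in cKO CD103-CD11b+ DCs lies between 67.3 and 85.4 CPM, above all other samples.

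In CD103+CD11b- DCs, 1 of the 37 genes was higher in cKO than in WT mice and none was lower by edgeR's quasi-likelihood test, beside 0.224% of all genes called higher and 0.797% lower. The gene was again *Oas3*, the one member called in both subsets. It was at 6.15, 3.89 and 3.23 CPM in the WT samples and at 9.99, 13.7 and 15.3 CPM in the cKO samples, which did not overlap. The rise was 1.58 on the log2 scale (standard error 0.32, edgeR adjusted p = 0.0474). The call was lost when any of 10 of the 12 samples was left out, with adjusted p up to 0.197, and the log2 fold change then ran from 1.38 to 1.85. Without replicate 3 of WT or of cKO CD103+CD11b- DCs it was 1.38 and 1.45 (edgeR adjusted p = 0.116 and 0.131). The call was also lost with library totals in place of TMM (edgeR adjusted p = 0.0628) and in the 6 samples alone (edgeR adjusted p = 0.0870). At an unadjusted p under 0.05, 7 members were higher and 5 were lower, against 3.89% and 6.64% of all genes. Lower calls appeared under other settings, with 5 members called higher and 3 lower by DESeq2, 4 and 4 by edgeR's likelihood ratio test, 3 and 3 without a filter, 1 and 3 with filterByExpr, 4 and 1 with 5 or more counts required in every sample, and 1 and 1, without *Oas3*, in the 6 samples alone. The shares of all genes called under these settings were not counted, so that these counts have no background beside them. Each cKO sample lay above each WT sample for 7 members and below for 6, which held for 7.51% and 10.6% of all genes. The members' median was 0.03 on the log2 scale, beside -0.02 for all genes. *Ifit3b* is left out of the range of the members, from -2.09 to 1.58, since its 3 counts in WT and 0 counts in cKO samples were at or under the floor.

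The members that had the lowest p after *Oas3* were lower in cKO samples and did not pass the test. *Ifi44*, an interferon-induced gene named for its protein's size, had values of 8.55, 15.6 and 12.6 CPM in WT and 3.55, 2.93 and 1.96 CPM in cKO samples (log2 fold change -2.09, edgeR adjusted p = 0.0505). *Oas1a* had 3.08, 2.75 and 3.07 CPM in WT and 0.444, 1.22 and 0.782 CPM in cKO samples (log2 fold change -1.83, edgeR adjusted p = 0.0537). *Ddx60*, a helicase that aids RNA sensing, had 4.79, 4.35 and 6.63 CPM in WT and 2.44, 0.976 and 0.782 CPM in cKO samples (log2 fold change -1.82, edgeR adjusted p = 0.0537). In all 3 the genotypes did not overlap, and the cKO samples of *Oas1a* rest on 2 to 5 counts and those of *Ddx60* on 2 to 11. *Rtp4* had the largest spread within a group of any member, 3.26 log2 units among the cKO CD103+CD11b- samples, with 1.78, 4.39 and 0 CPM. In the same samples 3 of the 4 markers of the CD103-CD11b+ subset were called lower in cKO than in WT mice, while the fourth, *Itgam*, was not called and had higher values in cKO samples, as given above. *Sirpa* fell by 2.74, *Cd209a* by 2.80 and *Irf4* by 1.78 on the log2 scale (edgeR adjusted p = 0.0420, 0.0470 and 0.0241). The 4 plasmacytoid DC markers summed to 803 to 1856 CPM in WT and 321 to 679 CPM in cKO samples, with none of the 4 called. Of the 5 epithelial markers, *Epcam* was called lower, at 36.1 to 49.9 CPM in WT and 6.26 to 18.5 CPM in cKO samples (edgeR adjusted p = 0.0432). The median log2 fold change of the 5 was 2.17, opposite in direction to *Epcam*. Their sums overlapped, at 46.2 to 60.9 CPM in WT and 18.8 to 68.8 CPM in cKO samples. The part of these cells in the lower values of *Ifi44*, *Oas1a* and *Ddx60* was not tested.

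**Figure D4:**
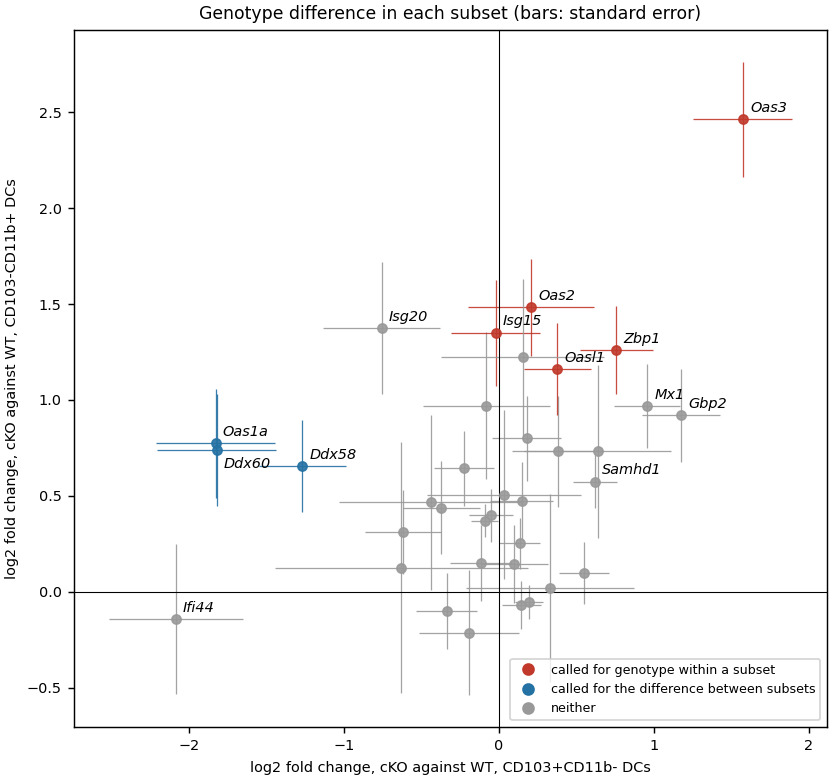
Log2 fold change of cKO against WT, with CD103+CD11b- DCs on the horizontal and CD103-CD11b+ DCs on the vertical axis, for 36 of the 37 genes, with bars for the standard error. *Ifit3b* is left out because it was at or under the floor in CD103+CD11b- DCs. *Oas3* lies to the upper right (1.58 and 2.46), and *Oas1a*, *Ddx60* and *Ddx58* lie to the upper left.

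The difference of the genotype effects between the subsets was called for 3 of the 37 genes, all with a higher signed log2 fold change of cKO against WT in CD103-CD11b+ DCs, against 0.554% of all genes called in this direction and 0.0972% in the other. At an unadjusted p under 0.05 the counts were 13 and 0, against 6.36% and 4.74% of all genes. The 3 genes were *Oas1a*, *Ddx60* and *Ddx58*, the last encoding RIG-I, a sensor of viral RNA ends. *Ddx58* was at 16.4, 13.5 and 23.8 CPM in WT and 6.66, 10.3 and 5.08 CPM in cKO CD103+CD11b- DCs, and at 108, 166 and 119 CPM in WT and 205, 218 and 194 CPM in cKO CD103-CD11b+ DCs. The genotypes did not overlap in either subset and lay in opposite order. On the log2 scale cKO minus WT came to -1.27 in CD103+CD11b- and 0.65 in CD103-CD11b+ DCs, neither called, and these differed by 1.93 (standard error 0.37, edgeR adjusted p = 0.0486).

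*Ddx60* was at 31.7, 42.6 and 29.1 CPM in WT and 58.4, 69.2 and 44.4 CPM in cKO CD103-CD11b+ DCs, opposite to the order in CD103+CD11b- DCs, and its log2 fold changes of -1.82 in CD103+CD11b- and 0.74 in CD103-CD11b+ DCs differed by 2.56 (standard error 0.48, edgeR adjusted p = 0.0455). For *Oas1a* the values were 24.7, 16.7 and 12.8 CPM in WT and 29.0, 30.5 and 33.7 CPM in cKO CD103-CD11b+ DCs, and the log2 fold changes of -1.83 in CD103+CD11b- and 0.77 in CD103-CD11b+ DCs differed by 2.60 (standard error 0.48, edgeR adjusted p = 0.0422). None of the 3 genes passed the test within a single subset, and for each the change was larger in size in CD103+CD11b- DCs. The calls for the difference were lost in 10 of 12 fits without 1 sample for *Oas1a*, 11 of 12 for *Ddx60* and 10 of 12 for *Ddx58*, and *Ddx58* also lost the call with RLE scaling (edgeR adjusted p = 0.0538) and with a replicate block within genotype (edgeR adjusted p = 0.0505). With library totals in place of TMM none of the members was called, with 12 higher and 0 lower at an unadjusted p under 0.05. The share of all genes at that unadjusted p was not counted with library totals. Without replicate 3 of WT CD103+CD11b-, of cKO CD103+CD11b- or of cKO CD103-CD11b+ DCs, each left out alone, none of the 3 was called, with differences from 1.67 to 2.71 and edgeR adjusted p from 0.0594 to 0.0965. Next by p were *Isg20*, an RNA exonuclease (2.13, edgeR adjusted p = 0.115), *Stat2* (0.46, edgeR adjusted p = 0.160) and *Isg15* (1.37, edgeR adjusted p = 0.197). For *Oas3*, called in both subsets, the difference was 0.89 (standard error 0.43, edgeR adjusted p = 0.497). In CD103+CD11b- DCs *Sirpa*, *Irf4* and *Cd209a* were lower in cKO mice, as the values of these 3 genes were, while *Itgam* had higher values, and the part of such cells in the difference was not tested.

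Averaged over both subsets, 6 members were higher in cKO mice and 0 were lower, against 1.17% and 1.32% of all genes, and 12 were higher and 3 lower at an unadjusted p under 0.05, against 7.17% and 9.43%. *Oas3* was higher by 2.02 on the log2 scale (standard error 0.22, edgeR adjusted p = 0.00129), *Zbp1* by 1.01 (0.16, edgeR adjusted p = 0.0107) and *Oasl1* by 0.77 (0.16, edgeR adjusted p = 0.0331). *Mx1*, *Gbp2* and *Samhd1*, not called within either subset, were called here. The fit took the samples of both subsets as independent, and the labels do not say whether both were sorted from the same mice. If they were, the standard errors and p over both subsets may be too small. In CD103+CD11b- DCs *Mx1* was at 54.4, 63.4 and 41.9 CPM in WT and 114, 118 and 76.7 CPM in cKO samples, and over both subsets it was higher by 0.96 (standard error 0.15, edgeR adjusted p = 0.00955). *Gbp2* was at 36.9, 36.2 and 28.6 CPM in WT and 68.3, 69.6 and 91.9 CPM in cKO CD103+CD11b- DCs, and at 154, 164 and 106 CPM in WT and 191, 245 and 368 CPM in cKO CD103-CD11b+ DCs. It was higher by 1.05 over both (standard error 0.18, edgeR adjusted p = 0.0122). *Samhd1* was at 420, 356 and 282 CPM in WT and 510, 563 and 553 CPM in cKO CD103+CD11b- DCs, and it was higher by 0.60 over both subsets (standard error 0.10, edgeR adjusted p = 0.0121).

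The genotypes did not overlap within either subset for these 3 genes, with the cKO samples above. *Oas3*, *Mx1*, *Zbp1*, *Gbp2* and *Samhd1* were called over both subsets in each of the 12 fits that left out 1 sample, and *Oasl1* lost the call in 8 of them. Next by p were *Ifi44* with a log2 fold change of -1.11 (edgeR adjusted p = 0.0720), *Oas2* with 0.85 (edgeR adjusted p = 0.1003) and *Isg15* with 0.66 (edgeR adjusted p = 0.111).

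The subsets differed in more of these genes than the genotypes did. In WT mice, 17 of the 37 genes were higher and 4 were lower in CD103-CD11b+ than in CD103+CD11b- DCs by edgeR's quasi-likelihood test, against 11.8% and 7% of all genes. In cKO mice, 25 were higher and 4 were lower, against 9.26% and 6.81%. The members' median was 0.92 on the log2 scale in WT and 1.42 in cKO mice, beside 0.07 and 0.11 for all genes. Without replicate 3 of WT CD103+CD11b- DCs the count was 20 in place of 21 in WT mice, and without that of cKO CD103+CD11b- DCs it was 25 in place of 29 in cKO mice. Of the called members 20 were shared, each with the same direction in both genotypes. *Stat2* was called in WT mice and not in cKO mice, and 9 genes, *Ifit2*, *Ifit3b*, *Isg15*, *Usp18*, *Herc6*, *Irf9*, *Dhx58*, *Isg20* and *Ifi44*, in cKO mice and not in WT mice. The test of that difference between genotypes is the one given above, in which none of these 10 was called.

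*Oas2* had the largest difference between the subsets among the 36 members other than *Ifit3b*, which had 0 counts in the cKO CD103+CD11b- samples. It was at 0.684, 1.37 and 1.13 CPM in WT and 0.666, 1.71 and 1.56 CPM in cKO CD103+CD11b- DCs, where few counts were behind it, and the CD103-CD11b+ values given above were higher by 4.66 on the log2 scale in WT (standard error 0.33, edgeR adjusted p = 1.85e-05) and by 5.94 in cKO mice (standard error 0.34, edgeR adjusted p = 3.26e-06). *Ddx58*, *Ddx60* and *Oas1a* were higher in CD103-CD11b+ DCs by 2.85, 2.69 and 2.60 in WT and by 4.78, 5.25 and 5.20 in cKO mice (edgeR adjusted p from 4.78e-06 to 0.000601). These 4 genes had the smallest p in cKO mice. *Gbp3*, a guanylate-binding GTPase, was at 16.8, 14.9 and 15.2 CPM in WT CD103+CD11b- DCs and at 85.0, 127 and 76.2 CPM in WT CD103-CD11b+ DCs. Its difference was 2.62 in WT (standard error 0.22, edgeR adjusted p = 5.22e-05) and 2.67 in cKO mice (edgeR adjusted p = 2.10e-05), nearly equal in the genotypes. *Gbp2* was higher by 2.06 in WT mice (edgeR adjusted p = 0.000671).

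*Rsad2*, which encodes viperin, an enzyme that makes a chain-ending nucleotide, was at 2.05, 1.60 and 2.59 CPM in WT CD103+CD11b- DCs and at 13.1, 36.6 and 12.8 CPM in WT CD103-CD11b+ DCs, where replicate 2 was the highest. The difference was 3.28 in WT (standard error 0.48, edgeR adjusted p = 0.00171) and 4.35 in cKO mice (edgeR adjusted p = 0.000181). *Ifit3* was higher by 3.13 in WT mice, from 0.915 to 1.78 CPM against 12.3 to 14.0 CPM (edgeR adjusted p = 0.00346). *Oasl2* was higher by 2.15 in WT (edgeR adjusted p = 0.00635) and by 3.20 in cKO mice (edgeR adjusted p = 0.000453). *Xaf1*, named for its binding to an inhibitor of apoptosis, was higher by 1.99 in WT and 2.92 in cKO mice, and *Parp14*, an ADP-ribosyltransferase, by 0.86 and 1.31 (edgeR adjusted p from 2.41e-05 to 0.00290). In cKO mice *Isg20* was higher by 3.20 and *Oas3* by 2.52 (edgeR adjusted p = 0.000249 and 0.000250). *Ifit3b* had 0 counts in the 3 cKO CD103+CD11b- samples and 24, 12 and 2 counts in the cKO CD103-CD11b+ samples, at least 13.3-fold higher against a floor of 3 counts over the group. With *Ifit3b* at this bound the median of the members in cKO mice was 1.42.

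*Oasl1* went the other way. It was at 41.4, 40.96 and 47.9 CPM in WT CD103+CD11b- DCs and at 7.05 to 8.33 CPM in WT CD103-CD11b+ DCs, and it fell by 2.51 on the log2 scale in WT (standard error 0.24, edgeR adjusted p = 0.000126) and by 1.72 in cKO mice (standard error 0.23, edgeR adjusted p = 0.000483). *Mx1* and *Trim30a* were also called lower in CD103-CD11b+ DCs in both genotypes, *Stat2* in WT and *Irf9* in cKO mice. *Irf9* shares 123 exon bases with *Rnf31* on the same strand, and *Irf7* shares 45 with *Phrf1* on the other strand, which counting did not use. Reads in these shared bases cannot be told apart. The 6 genes called in no comparison were *Mx2*, *Irf7*, *Ifi204*, *Eif2ak2*, *Ifi35* and *Sp100*. *Irf7* encodes a factor for interferon genes and *Eif2ak2* the kinase PKR, which halts translation. The macrophage markers, at 12.6 to 49.1 CPM in CD103+CD11b- and 122 to 403 CPM in CD103-CD11b+ samples, moved with the subset, with 4 of 6 called higher in WT and 5 of 6 in cKO mice. B cell markers were called higher in CD103-CD11b+ DCs for 3 of 5 in cKO mice, at sums of 65.8 to 382 CPM against 21.9 to 34.2 CPM, and for 0 of 5 in WT mice. Plasmacytoid DC markers were called lower for 2 of 4 in WT and 1 of 4 in cKO mice, and 1 of 5 epithelial markers was called higher in each genotype. The median log2 fold change of the 5 epithelial markers was 0.70 in WT and -0.61 in cKO mice, so that in cKO mice most did not go with the called one. The part of these cells in the differences between subsets was not tested.

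**Figure D5:**
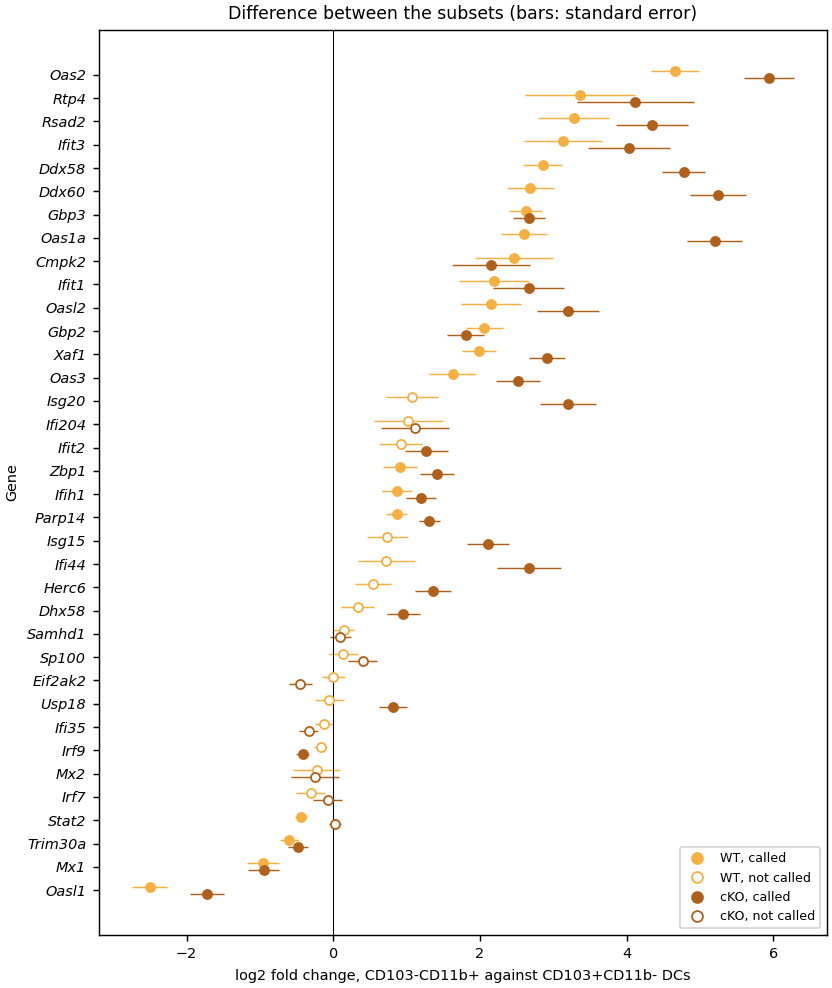
Log2 fold change of CD103-CD11b+ against CD103+CD11b- DCs in WT and in cKO mice for 36 of the 37 genes, sorted by the value in WT, with bars for the standard error and filled points for called genes. *Ifit3b* is left out because it had 0 counts in cKO CD103+CD11b- DCs. *Oas2* is at the top (4.66 and 5.94) and *Oasl1* at the bottom (-2.51 and -1.72).

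The other genes of the pathway were 49 listed genes, of which 40 were tested. Of the 11 interferon genes listed, 2 were tested, *Ifnk* at 2.35 to 7.09 CPM and *Ifng* at 0 to 5.997 CPM, and neither was called in any comparison. *Ifnb1*, *Ifna1*, *Ifna2*, *Ifna4*, *Ifna5*, *Ifne* and *Ifnl3* had 0 counts in all 12 samples, which allows up to 0.512 to 1.39 CPM in a sample. In CD103-CD11b+ DCs 1 of the 40 was called lower in cKO mice, beside 0.5% of all genes, and 11 were higher and 2 lower at an unadjusted p under 0.05, beside 8.29% and 9.15%. The gene called lower was *Socs3*, a feedback inhibitor of JAK kinases, which was at 249, 401 and 345 CPM in WT and 167, 182 and 207 CPM in cKO samples and fell by 0.84 on the log2 scale (standard error 0.17, edgeR adjusted p = 0.0422). The genotypes did not overlap.

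In CD103+CD11b- DCs edgeR called 0 of the 40 higher and 1 lower in cKO mice, beside 0.224% and 0.797% of all genes, with 11 higher and 4 lower at an unadjusted p under 0.05, beside 3.89% and 6.64%. The gene called was *Irf4*, which was also one of the subset markers given above, at 209, 141 and 188 CPM in WT and 37.3, 54.2 and 66.1 CPM in cKO samples. Over both subsets 14 of the 40 were higher and 4 lower at an unadjusted p under 0.05, beside 7.17% and 9.43% of all genes. Among those called were *Cxcl9*, a chemokine gene induced by interferon gamma (0.83, edgeR adjusted p = 0.0291), *Irf4* (-0.89, edgeR adjusted p = 0.0494) and *Socs3* (-0.54, edgeR adjusted p = 0.0471). For the difference between subsets edgeR's quasi-likelihood test called 0 of the 40, with 4 higher and 6 lower at an unadjusted p under 0.05, beside 6.36% and 4.74% of all genes.

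Between the subsets, 6 of the 40 were higher and 9 lower in CD103-CD11b+ DCs in WT mice, beside 11.8% and 7% of all genes, and 5 were higher and 8 lower in cKO mice, beside 9.26% and 6.81%. The 5 of these with the smallest p in WT mice were *Socs3*, higher by 2.02, and *Tlr3*, *Tyk2*, *Ifnar1* and *Irf8*, which fell by 3.07, 0.82, 0.98 and 2.20 on the log2 scale (edgeR adjusted p from 8.52e-05 to 0.00246). *Tlr3* encodes a sensor of double-stranded RNA and *Ifnar1* a chain of the type I interferon receptor, at 357 to 442 CPM in WT CD103+CD11b- DCs and 182 to 224 CPM in WT CD103-CD11b+ DCs. In cKO mice those with the smallest p were *Tlr3* (-3.10), *Irf4* (2.67), *Socs3* (1.41), *Tyk2* (-0.89) and *Ptpn11* (-0.54), with edgeR adjusted p from 0.000125 to 0.000964.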

How the data were processed

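The authors deposited raw counts of reads per gene, 1 file per sample, without normalization. Per the labels and the study's methods, libraries were made by RamDA-seq from small numbers of sorted cells, reads were trimmed with Trim Galore, mapped to mm10 (GRCm38) with STAR 2.7, and counted on genes with HTSeq without regard to strand, after reads of low mapping quality and duplicates had been removed. The counter's summary lines, 61.2% to 67.3% of the reads, were left out, so that counts cover between 32.7% and 38.8% of them. Symbols and positions came from GENCODE M21, and promoter sequences from RefSeq (GRCm38.p6).

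After TMM scaling, a model of the 4 groups was fitted in edgeR 4.0.16 (R 4.3.3), whose quasi-likelihood test gave each p. P was adjusted by Benjamini-Hochberg over the 20580 genes that reached a count of 5 in any sample, and genes with an adjusted p under 0.05 and a fold change over 1.3 were called. The standard error is the absolute log2 fold change divided by the square root of F. CPM values use TMM factors, and scores use log2 CPM with a prior count of 2. The procedure was also run on simulated counts drawn as independent samples, which cannot show how it performs where samples correlate.

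The members and the lists of pathway genes and markers were chosen with earlier results of these data known. Named genes were every member called (the 12 with the smallest p where more were called), the 5 highest and 5 lowest per kb, the 3 with the smallest p that were not called for genotype, the member with the largest spread within a group, and called pathway genes, with values for at most 5 per comparison. Alternatives were RLE scaling, DESeq2 1.42.0, edgeR's likelihood ratio test, other filters and limits, a replicate block, fits to 6 samples and leaving out each sample. Floors cover counting error only, while standard errors also include the spread between replicates. Replicates are different mice per the study's methods. The result of 1 listed pathway gene is not reported here.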

Additional observations from a re-analysis of the deposited data

Results flagged for a closer look

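A difference of the genotype effect between the subsets was called, by the test of the difference itself, for 3 members. By edgeR's quasi-likelihood test over the 12 samples, the signed log2 fold change of cKO against WT was higher in CD103-CD11b+ than in CD103+CD11b- DCs by 2.60 for *Oas1a*, by 2.56 for *Ddx60* and by 1.93 for *Ddx58*. These calls were lost in 10, 11 and 10 of the 12 fits that left out 1 sample, and with library totals in place of TMM no member was called. In cKO CD103+CD11b- DCs the values rest on few counts, 2 to 5 for *Oas1a* and 2 to 11 for *Ddx60*. Values of single samples were not screened within groups, as each group held 3.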

How the results depend on the processing

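No member called in a comparison changed direction under any alternative. In CD103-CD11b+ DCs the count of members called for genotype, 5 as reported, was 10 with DESeq2, 9 with edgeR's likelihood ratio test, 8 with 5 or more counts required in every sample, 8 with the replicate block and 10 at an adjusted p under 0.1. It was 0 with edgeR's quasi-likelihood test in the 6 samples alone, where 21 members were higher and 0 lower at an unadjusted p under 0.05. Shares of all genes under the other tests, filters, limits, blocks and sets of samples were not counted, so that these counts have no background beside them. In CD103+CD11b- DCs the count of 1 became 8 with DESeq2 (5 higher, 3 lower), 8 with the likelihood ratio test (4 higher, 4 lower), 5 with counts required in every sample (4 higher, 1 lower), 6 without a filter (3 higher, 3 lower), 4 with filterByExpr (1 higher, 3 lower), 4 with the replicate block (3 higher, 1 lower), 8 at an adjusted p under 0.1 (4 higher, 4 lower) and 2 in the 6 samples alone (1 higher, 1 lower). For the difference between subsets the count of 3 became 5 with DESeq2, 1 with counts required in every sample and 0 with library totals in place of TMM, an alternative chosen after seeing the data. The causes were not tested.

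Leaving out 1 sample at a time, the counts ran from 1 to 7 in CD103-CD11b+ DCs, from 0 to 3 in CD103+CD11b- DCs, from 5 to 8 over both subsets, from 0 to 2 for the difference, from 16 to 22 between the subsets in WT and from 25 to 30 in cKO mice. The score differences in the same order ran from 0.58 to 0.73, -0.15 to 0.00, 0.24 to 0.34, 0.63 to 0.78, 0.95 to 1.10 and 1.71 to 1.85. In CD103+CD11b- DCs the count was 0 without any of 6 samples, each WT CD103+CD11b- sample, cKO CD103+CD11b- replicate 2 and cKO CD103-CD11b+ replicates 1 and 2, where 6 or 7 members were higher and 4 to 6 lower at an unadjusted p under 0.05. With the 31 members that had 5 or more counts in every sample, the score difference was 0.067 in place of -0.06 for genotype in CD103+CD11b- DCs, 0.54 in place of 0.69 for the difference between subsets, and 0.73 in WT and 1.27 in cKO mice between subsets. With a prior count of 0.5 the latter was 1.91.

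The replicate numbers are shared by all 4 groups. Deviations of samples with the same number correlated above 0.1 in 4 of 6 pairs of the same subset, 5 of 6 pairs of the same genotype and 3 of 6 pairs that share neither. Within a genotype the mean correlation was 0.33 for the same number and -0.16 for different numbers. As samples of different genotypes, from different mice, also correlated by number, the correlation does not show shared mice. The main fit paired no samples, so that any pairing of the subsets by mouse is ignored in it. Between the cKO subsets all 3 pairs were above 0.1 (0.25, 0.48 and 0.52). So were CD103+CD11b- replicate 1 with CD103-CD11b+ replicate 2 (0.14) and CD103+CD11b- replicate 2 with CD103-CD11b+ replicate 1 (0.21). The check thus does not settle whether the numbers pair the samples of the cKO subsets. With the replicate block within genotype, 32 members in place of 29 were called there, 24 in place of 21 in WT mice and 4 in place of 3 for the difference between subsets, where *Ddx58* lost the call. The replicate block changed counts by over 1.5 times only as given above. Among the fold changes of called members, 729 kept their call and 15 lost it under the other alternatives, and 672 kept it and 108 lost it when 1 sample was left out. Depth limits the members with few counts most, such as *Ifit3b*, *Rtp4*, *Ifit3* and *Oas1a* in CD103+CD11b- DCs.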
